A study of Mus musculus with 19 samples.

Results

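The 5 microarrays described here compared RNA from the lungs of vehicle-treated mice with a reference RNA pooled from 11 mouse cell lines. They were chosen by their title alone, as the 5 control arrays among the 19 arrays of the series, and the other 14 arrays were not used. All 5 lungs came from male MutaMouse animals, a transgenic strain that carries a bacterial reporter gene for mutation assays, aged about 12 weeks. The animals received olive oil alone by oral gavage each day for 28 days, and lung was taken 72 h after the last dose. Lung RNA was extracted from random sections of the tissue, so all cell types of the lung, its airways and its blood were sampled together. On every array the lung RNA was labelled with the red dye and the Universal Mouse Reference RNA with the green dye. The ratio of red to green in 1 spot therefore set an intact adult organ against proliferating cultured cells, and it is given throughout as log2(lung / reference), so that positive values were higher in lung.

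The adult lung is a thin sheet of gas-exchanging epithelium laid over a dense capillary bed. Flat alveolar type 1 cells cover most of the surface, and alveolar type 2 cells secrete surfactant, the mixture of lipids and proteins that keeps the air spaces from collapsing. The conducting airways are lined by secretory club cells, which also carry much of the lung's drug-metabolising enzyme, and by ciliated cells that move mucus. Resident macrophages patrol the air spaces, and few cells of the resting organ divide. Cell lines in culture, in contrast, divide continuously, and a pool of lines from different tissues serves as a common yardstick that gives signal on many probes.

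All 5 arrays gave usable signals. Mice 1 and 2 shared a slide, as did mice 3 and 4, and mouse 5 was on another slide, so that between these sets a difference between animals and one between slides cannot be told apart. The median spot signal lay between 116 and 142 for lung and between 65 and 90 for the reference, and no spot was saturated. Between 56.7% and 64.7% of spots were well above background for lung, and between 51.9% and 61.6% for the reference. After normalization within each array, the ratios of any pair of mice correlated across probes with r between 0.964 and 0.979 (10 pairs, which all share the reference RNA and dye layout; probes are not independent replicates). The dyes were not swapped on any array, so each ratio is open to dye bias, and the reference was a single pool, so the test of a ratio against 0 includes the spread between mice and arrays but not that of the pool. Because whole tissue was measured, more cells of a type and more RNA per cell cannot be told apart. A gene was called when its ratio was at least 4-fold in either direction with an adjusted p of at most 0.05 (limma with Benjamini-Hochberg adjustment over 31938 tested probes), and the probe with the highest mean signal stood for the gene.

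Lung and reference RNA differed widely. Of the 31938 tested probes, 1701 (5.33%) were called higher in lung and 858 (2.69%) were called higher in the reference, 8.01% in all. Counted by gene, 1253 of 15113 tested genes (8.29%) were higher in lung and 513 (3.39%) were higher in the reference, 11.7% in all. By the adjusted p alone 81.3% of tested probes differed, and at a 2-fold threshold 25.5% of probes and 32.2% of genes, so the 4-fold threshold carries most of the selection. These shares stand beside the counts of the gene lists below, whose members were chosen with earlier results of these data known. A gene seen in only 1 of the RNAs entered the test through that RNA, so the counts over tested members of a list are descriptions. As measured, the fold changes were larger on the lung side, where 332 called probes exceeded 16-fold against 54 on the reference side. Background was not subtracted, and its median signal was 72 to 73 for lung and 26 to 28 for the reference. Its part in this difference was not tested. For some genes named below (Birc5, Cr2, Cyp2e1, Igf2bp2, Mfap2, Plet1, Tpx2 and Xist) a further probe had a ratio of the same sign that was not called. No gene had probes called in opposite directions among the 3876 genes with several tested probes. A further contrast lay in detection: 1434 probes were well above background in lung on all 5 arrays and in the reference on none, and 550 showed the opposite. With only 5 mice, an exact sign-flip permutation test of a single gene (two-sided) cannot go below p = 0.0625, so calls rest on the limma fit across all probes.

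Among called genes well above background in both RNAs on all 5 arrays, the 10 highest ratios included endothelial, secretory and surfactant genes. Ptprb, the receptor phosphatase of vascular endothelium, had log2 ratios of 8.45, 8.41, 8.82, 9.0 and 8.52 in mice 1 to 5, a mean of 8.64 ± 0.26 (SD, n = 5) or 399-fold (limma, adjusted p = 2.8e-11). Epas1, which encodes the oxygen-sensitive transcription factor HIF-2α, gave 8.34, 8.44, 8.69, 8.46 and 8.41, or 354-fold. The 3 Epas1 probes did not give the same size of difference, since the other probes averaged 4.82 and 0.92. Every mouse lay far above the reference for both genes.

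Scgb1a1, the club cell secretory protein, gave log2 ratios of 7.57, 7.50, 8.44, 8.72 and 8.06 in mice 1 to 5 and was 267-fold higher in lung. Sftpd and Sftpc, the genes of surfactant proteins D and C, were 257-fold and 212-fold higher. For Sftpc the 5 mice gave 7.54, 7.16, 7.98, 8.18 and 7.80. The other genes among the 10 highest of this set were Sec14l3 (8.26 ± 0.50), the cytoskeletal gene Limch1 (8.05 ± 0.22), the adult beta-globin gene Hbb-bs (7.54 ± 0.25), the matricellular gene Sparcl1 (7.42 ± 0.11) and the lysozyme gene Lyz1 (7.23 ± 0.39), with SD over 5 mice. Adjusted p-values of these 10 genes ran from 7.4e-12 to 2.8e-10 in limma.

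In the same set of genes the lowest ratios, also without background subtraction, were less extreme. Dlk1, a membrane protein related to Notch ligands and expressed mainly before birth, gave log2 ratios of -5.63, -6.01, -6.10, -6.00 and -6.00 in mice 1 to 5 and was 61.7-fold higher in the reference. Il1rl1, the receptor for interleukin 33, was 61.6-fold higher in the reference, with -5.67, -5.90, -5.99, -6.08 and -6.09 in the 5 mice. Hmga2, an architectural chromatin protein of embryonic and transformed cells, was 34.6-fold higher, and its 5 values lay between -5.20 and -5.03. The linker histone gene H1f5 (-5.12 ± 0.17), Sapcd2 (-4.74 ± 0.34), the X-linked homeobox gene Rhox5 (-4.72 ± 0.18), Syt13 (-4.66 ± 0.28), the centromere protector Sgo1 (-4.52 ± 0.10), the cell cycle inhibitor locus Cdkn2a (-4.50 ± 0.33) and the mitotic survival gene Birc5 (-4.37 ± 0.18) completed the 10 lowest of this set. Values of the 5 mice stayed within 1 log2 unit of each other for each of these 10 genes.

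**Figure D1:**
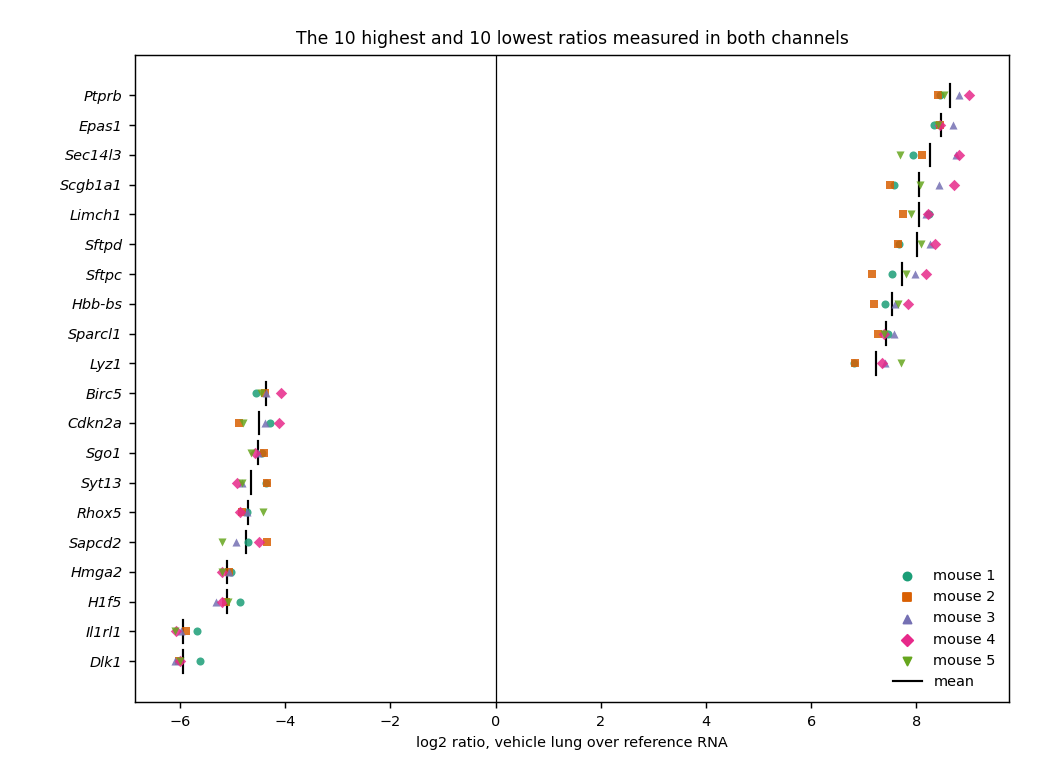
Log2 ratio of lung over reference RNA in each of 5 mice for the 10 genes with the highest and the 10 with the lowest ratio among called genes well above background in both RNAs on all 5 arrays, with the mean as a bar. The lung genes lie at means from 7.23 to 8.64 and the reference genes from -5.95 to -4.37, and the 5 mice of each gene sit close together compared with the distance from 0.

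For genes seen in only 1 of the RNAs the ratio depends on a signal at background, and a lower bound of the fold is given. In lung the largest bounds were at least 138-fold for the surfactant-associated pseudogene Sfta3-ps, at least 68.8-fold for the endothelial gene Ccm2l, at least 58.6-fold for integrin alpha 8 (Itga8), at least 56.2-fold for the prostaglandin-degrading enzyme Hpgd, and at least 45.7-fold for the hyaluronan receptor Lyve1 of lymphatic endothelium. The stem cell factor receptor Kit had a bound of similar size, at least 46.6-fold. All 6 probes were well above background in the lung of 5 of 5 mice and in the reference on no array. On the reference side large bounds were at least 84.9-fold for the interferon-inducible gene Ifi202b, at least 41.0-fold for Hoxc6, at least 28.7-fold for the oxygen-sensing hydroxylase Egln3, at least 18.0-fold for the protease inhibitor gene Spinkl and at least 17.9-fold for Hoxc9. None of these 5 was well above background in the lung of any mouse. Among genes named below, the reference signal was well above background on 1 of 5 arrays for Cdh5, Col14a1, Cyyr1, Mrc1 and Nppa, on 2 for C1qa, Cyp2e1, Gucy1a1, Sln and Trim34a, and on 3 for Bpifa1, Cyp4b1, Fcmr, H2-Aa, Myh11 and Tcf21. The lung signal was so on 1 array for Hoxc10 and on 3 for Hoxc4, Msr1 and Polr1b. Their fold changes rest in part on signals near background.

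**Figure D2:**
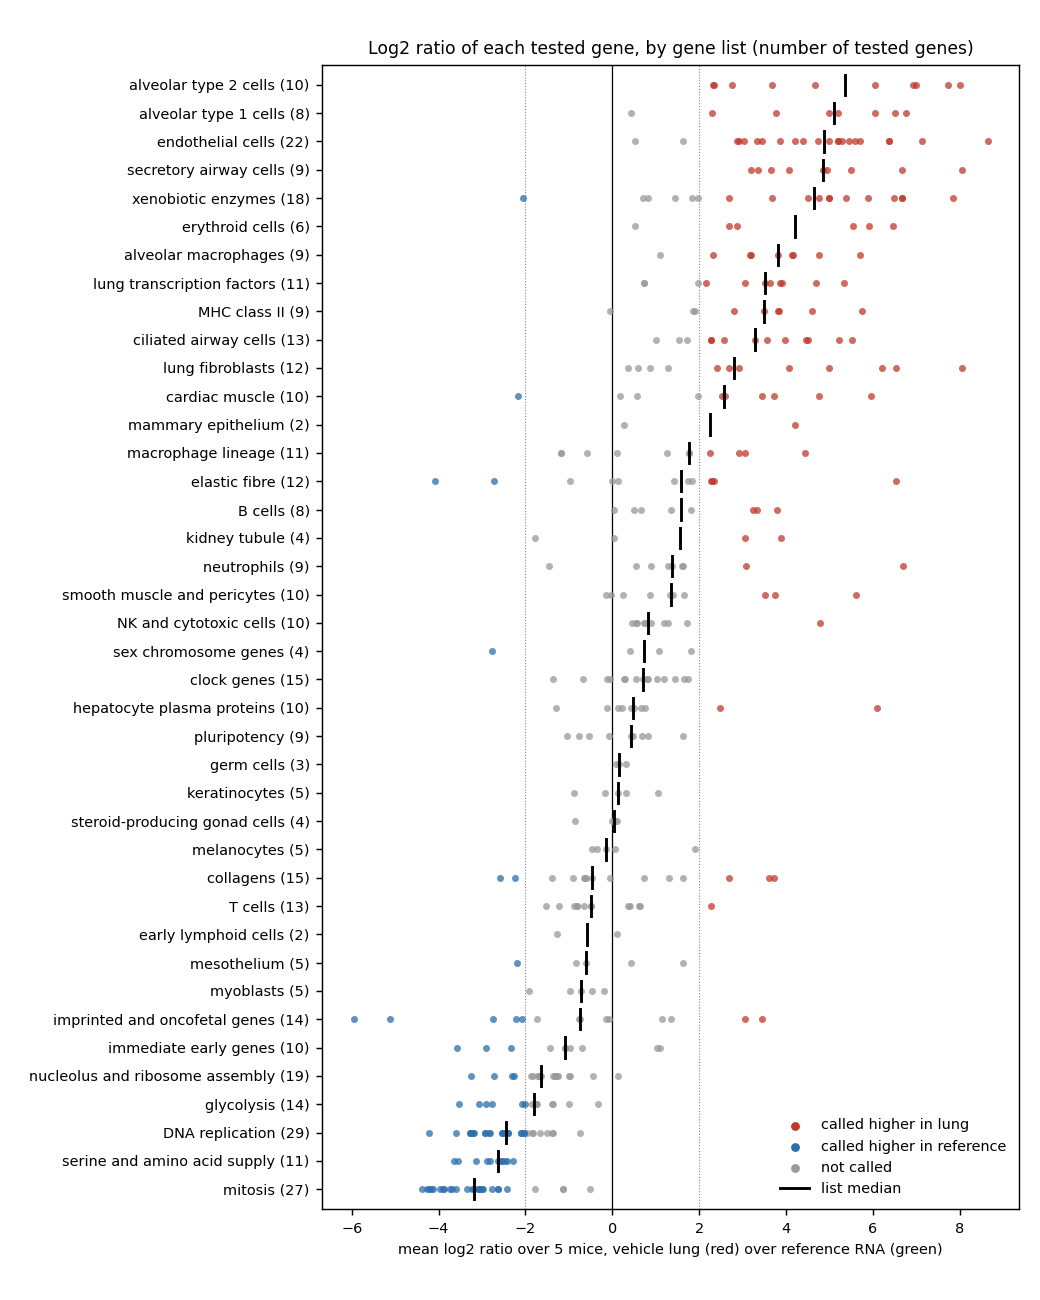
Mean log2 ratio over 5 mice of every tested gene in 40 lists of cell type and process genes, ordered by the list median (black bar), with genes called higher in lung in red, higher in reference in blue and not called in grey. Dotted lines mark 4-fold. Lists of alveolar, secretory airway and endothelial cells lie at medians of 4.84 to 5.37, and the cell division and amino acid supply lists lie at -3.19 to -2.44.

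Genes of the gas-exchange surface were mostly higher in lung. All 10 tested genes of alveolar type 2 cells (of 11 listed) were called, with a median log2 ratio of 5.37, against a median of 0.0737 over all tested genes. Beside Sftpc and Sftpd these included Sftpb at 127-fold, Sftpa1 at 121-fold, the chemokine-like gene Cxcl15 at 66.5-fold, the phosphate transporter Slc34a2 at 25.6-fold and the surfactant lipid pump Abca3 at 12.8-fold. The smallest differences on the list were those of Etv5 (4.98-fold), Lpcat1 (5.07-fold) and Lamp3 (6.72-fold), and after median centring Etv5 and Lamp3 were not called. The labelled tissue thus carried the defining markers of alveolar epithelium in all 5 animals. Sftpb gave 6.70, 6.47, 7.28, 7.48 and 7.02 in mice 1 to 5, and mouse 2 was lowest for 8 of the 10 tested genes, though not for Lamp3 or Cxcl15.

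Of 8 tested alveolar type 1 genes (of 9 listed), 7 were called higher in lung, with a median of 5.09. The chloride channel Clic5 reached 109-fold and varied little, with values of 6.74, 6.71, 6.83, 6.85 and 6.70. Ager, the receptor for advanced glycation end products and a marker of this cell, gave 5.83, 5.59, 6.34, 6.47 and 5.99 in mice 1 to 5 (65.9-fold). Akap5 was 91.5-fold, the water channel Aqp5 36.5-fold and Hopx 32.0-fold higher. The exception was Pdpn, which encodes podoplanin, at 0.43 ± 0.20 (SD, n = 5), below the 4-fold threshold with both of its probes.

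The airway lining was equally plain. All 9 tested secretory cell genes (of 10 listed) were called higher in lung, with a median of 4.84. Cyp2f2, a cytochrome P450 of club cells that activates naphthalene, gave 6.30, 6.24, 6.90, 7.32 and 6.58 in mice 1 to 5, or 102-fold. The carbonyl reductase Cbr2 was 45.5-fold, Scgb3a1 28.7-fold, the antimicrobial gene Bpifb1 16.8-fold and the mucin Muc5b 10.3-fold higher. Ciliated cell genes were called in 10 of 13 cases, with a median of 3.30, and all 13 ratios were positive. They included Tppp3 (45.7-fold), the dynein light chain Dynlrb2 (37.3-fold), the sperm and cilium gene Tekt1 (22.8-fold) and Foxj1 (11.8-fold), the master regulator of motile cilia. The axonemal dynein Dnah5 was seen in lung alone, at least 9.68-fold higher.

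Endothelial genes were the longest of the lung cell lists. Of 22 tested, 20 were called higher in lung, none was called higher in the reference, and the median was 4.87. The tight junction gene Cldn5 gave 6.94, 6.64, 7.40, 7.60 and 7.06 in mice 1 to 5 (140-fold). The capillary lipoprotein lipase anchor Gpihbp1 (82.4-fold), VE-cadherin (Cdh5, 82.2-fold, its reference signal well above background on 1 array), von Willebrand factor (Vwf, 52.3-fold), Egfl7 (47.9-fold) and the receptor activity gene Ramp2 (44.0-fold) followed. For the VEGF receptor gene Kdr the outcome depended on the probe. The brighter probe, which stood for the gene, averaged 0.53 ± 0.17 and was not called, whereas the other probe gave 6.51, 6.11, 6.76, 7.10 and 6.52 and was called. The carbonic anhydrase gene Car4 behaved likewise, at 1.62 for the chosen probe and 3.96 for the other.

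The connective tissue was mixed rather than uniformly higher in lung. Of 12 fibroblast genes 8 were called, among them Mfap4 (92.2-fold), Inmt (73.9-fold), Fmo2 (32.0-fold) and the transcription factor Tcf21 (16.8-fold), while Dcn, Pdgfra, Ogn and Col13a1 were not. Smooth muscle and pericyte genes were called in 3 of 10 tested cases (of 11 listed): the guanylate cyclase subunit Gucy1a1 at 48.7-fold, the smooth muscle myosin Myh11 at 13.4-fold and Cnn1 at 11.5-fold. Acta2, smooth muscle actin, averaged -0.04 ± 0.26, and its 5 values lay on both sides of 0. In the elastic fibre list 4 of 12 genes were higher in lung (Mfap4, Mfap2, Mfap5 and Ltbp4) and 2 were higher in the reference. These 2 were Fbln2, fibulin 2, at 17.0-fold with values of -4.07, -4.21, -4.23, -3.88 and -4.05, and the crosslinking enzyme Lox at 6.65-fold.

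Collagen genes split by chain. The basement membrane chains Col4a4 (13.2-fold) and Col4a3 (at least 11.3-fold) and the fibril-associated Col14a1 (6.47-fold, although its second probe averaged 0.27 and was not called) were called higher in lung. The fibrillar chains Col1a1 (5.96-fold) and Col5a1 (4.71-fold) were called higher in the reference. Col1a1 gave -2.61, -2.43, -2.36, -2.48 and -3.00 in mice 1 to 5. The other 10 of 15 collagen genes lay between -1.40 and 1.63. The list median was -0.46, although its mean was above 0 in every mouse, between 0.117 and 0.342.

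Resident immune cells differed by type. Of 9 alveolar macrophage genes 8 were called higher in lung, with a median of 3.82, including Plet1 (52.0-fold), the scavenger receptor Marco (26.9-fold), Chil3 (18.0-fold) and the mannose receptor Mrc1 (17.5-fold). Marco gave 5.29, 4.54, 4.75, 4.87 and 4.30 in the 5 mice. The ninth gene, Pparg, was 2.14-fold higher and not called. Of 11 tested genes shared by the macrophage lineage (of 12 listed), 4 were called: Lyz2 (21.8-fold) and the complement genes C1qa (8.35-fold), C1qc (7.52-fold) and C1qb (4.76-fold). Cd14 (-1.17 ± 0.42) and Msr1 (-1.19 ± 0.19) had negative ratios below the threshold. Antigen presentation genes of MHC class II were called in 6 of 9 cases, led by H2-Aa at 53.7-fold and H2-Ab1 at 24.2-fold.

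T cell genes did not set lung apart. Only Cd3d of 13 T cell genes was called, at 4.83-fold (3 genes with the scanner's processed signals), and the list median was -0.50. Cd3e averaged -0.82 ± 0.14, Cd3g -0.81 ± 0.23, Cd5 -1.53 ± 0.18 and Cd28 -1.23 ± 0.21, and each was well above background in both RNAs on all 5 arrays. Of 10 tested NK and cytotoxic genes (of 11 listed) all had positive ratios, and Gzma was called (6 genes with the scanner's processed signals, and a second Nkg7 probe at 2.17 was called too), with 5.86, 3.98, 5.55, 4.22 and 4.27 in mice 1 to 5. Of 8 tested B cell genes (of 10 listed), 3 were called (6 with processed signals), among them Fcmr (13.8-fold) and the complement receptor Cr2 (10.1-fold). Of 9 tested neutrophil genes (of 11 listed), S100a9 was 103-fold higher in lung and Ltf at least 8.24-fold, while Mmp9 averaged -1.47 ± 0.16. With processed signals 6 neutrophil genes were called higher in lung and 1 higher in the reference.

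Red cell and heart muscle genes were also higher in the lung RNA. Of 6 tested red cell genes (of 8 listed) 5 were called higher in lung: Hba-a1 (88.2-fold), Hbb-bt (60.6-fold), the haem synthesis enzyme Alas2 (46.3-fold), the anion exchanger Slc4a1 (7.28-fold) and Bpgm (6.47-fold). Globin values differed little between the mice, with Hbb-bt at 5.55, 5.83, 5.77, 6.17 and 6.28. Near-identical globin copies share sequence, so these probes may not separate them. Of 10 heart muscle genes 6 were called higher in lung, including the atrial and adult myosin gene Myh6 (61.8-fold, although its second probe averaged 1.44 and was not called), the sarcoplasmic regulator Sln (27.0-fold), and the atrial light chains Myl7 (13.2-fold) and Myl4 (10.9-fold). Nppa, the atrial hormone, was at 0.19 ± 0.04. Mybpc3, the cardiac myosin-binding protein, was called higher in the reference at 4.50-fold, with -1.60, -1.82, -2.96, -2.63 and -1.84 in the 5 mice.

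Transcription factors that pattern the lung were mostly higher in the tissue. Of 11 tested (of 12 listed) 8 were called and all 11 ratios were positive. Foxa2 was 40.7-fold, Tbx4 at least 25.1-fold, Nkx2-1 15.0-fold, Klf2 14.5-fold, Foxa1 12.4-fold, Tbx5 11.3-fold and Tbx2 8.30-fold higher. Nkx2-1, the lineage factor of lung epithelium, gave 3.83, 3.66, 3.91, 4.08 and 4.08 in mice 1 to 5. Hoxa5 fell just short of the threshold at 1.98 ± 0.19, and Gata6 and Foxp1 both averaged 0.72.

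The Hox genes, which set position along the body axis, were examined after the values of Hoxc6 and Hoxc9 had been seen. Of 38 Hox genes with a value that were read, 30 were tested, and 1 was called higher in lung and 7 higher in the reference (16 with processed signals and 3 without normalization). The one called higher in lung was Hoxb5, at 2.05, 2.26, 2.00, 1.98 and 2.12 in the 5 mice, close to the threshold and not called after median centring or from the deposited ratios. Among paralogues 2 to 5 of the Hoxa and Hoxb clusters all 8 tested ratios were positive. Among 22 tested genes of higher paralogue number or of the Hoxc and Hoxd clusters 2 were positive (6 without normalization of the ratios), namely Hoxa7 at 0.07 and Hoxb6 at 0.04, both within their SD of 0. The 7 called higher in the reference were Hoxa11, Hoxb13, Hoxc4, Hoxc6, Hoxc9, Hoxc10 and Hoxd8. Within the Hoxa and Hoxb clusters the ratios were highest at paralogue 5, whereas Hoxa10, Hoxa11 and Hoxb13 were dim in all 5 lungs and at least 2.64-fold, 4.43-fold and 3.67-fold higher in the reference. Hoxa13, near background in both RNAs, was at -0.34 and not called.

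**Figure D3:**
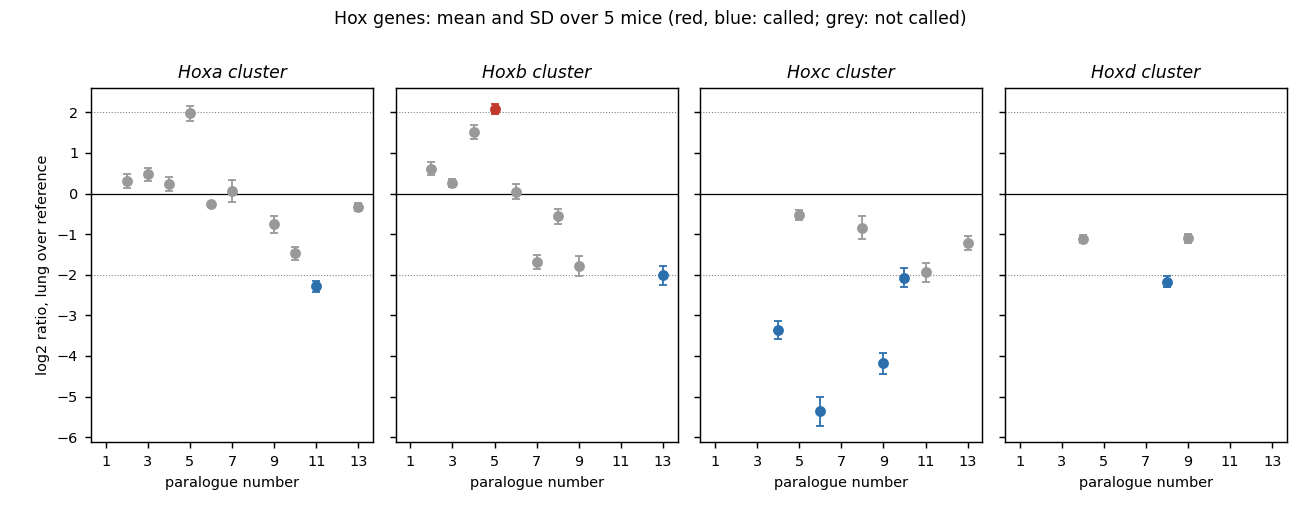
Mean log2 ratio ± SD over 5 mice of 30 tested Hox genes, by cluster and paralogue number, in red where called higher in lung, blue where called higher in reference and grey where not called; dotted lines mark 4-fold, and genes dim in lung are plotted at their measured ratio. The Hoxa and Hoxb ratios peak at paralogue 5 (1.98 and 2.08), and with loess every tested Hoxc and Hoxd gene lies below 0.

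Enzymes that metabolise foreign compounds were strongly represented in the lung. Of 18 such genes 12 were called higher in lung and 1 higher in the reference, with a median of 4.64. Cyp4b1, a P450 typical of lung, was 230-fold higher, with values of 7.62, 7.70, 8.11, 8.07 and 7.72. Ces1d and Cyp2f2 (each 102-fold), Aldh1a1 (89.7-fold), Cyp2b10 (58.9-fold), Fmo1 (41.9-fold), Fmo2 (32.0-fold), Gsta3 (31.5-fold), Sult1a1 (22.9-fold), Cyp2s1 (12.8-fold) and Cyp2e1 (6.41-fold) were among the others. Cyp1a1, the classic target of the aryl hydrocarbon receptor, was well above background in all 5 lungs and on no array in the reference, but the bound was small, at least 1.57-fold. Cyp1b1 was the gene called higher in the reference, at 4.13-fold with -2.35, -2.13, -2.01, -1.65 and -2.10.

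On the reference side the genes of cell division stood out. Of 29 tested genes of DNA replication (of 30 listed) 21 were called higher in the reference and none higher in lung, and all 29 ratios were negative, with a median of -2.44. Rrm2, a subunit of the enzyme that makes deoxynucleotides, gave -4.29, -4.37, -4.22, -4.01 and -4.17 in mice 1 to 5 (18.5-fold). The licensing factor Cdt1 was 12.1-fold, the polymerase gene Pole 9.67-fold, Mcm10 9.63-fold and Gins1 9.53-fold higher in the reference. Of the minichromosome maintenance genes Mcm2, Mcm3, Mcm5, Mcm6 and Mcm7 were called at 4.31-fold to 7.67-fold, and Mcm4 missed the threshold at 3.93-fold. Pcna averaged -1.84 and Tyms -0.74, and neither was called, though Pcna and Mcm4 were each called in 4 alternatives of the processing.

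Genes of mitosis differed still more. Of 27 tested (of 28 listed) 23 were called higher in the reference, all 27 ratios were negative (26 without normalization) and the median was -3.19. Ccnb1, the cyclin that drives entry into mitosis, gave -4.17, -4.29, -4.21, -4.03 and -4.35 in mice 1 to 5 (18.5-fold), and all 3 of its probes were called. The spindle gene Tpx2 was 19.3-fold, the centromere motor Cenpe 18.2-fold, Ccna2 17.5-fold, the kinase Aurka 15.5-fold, the proliferation marker Mki67 15.0-fold and Top2a 14.7-fold higher in the reference. Cdk1, the kinase partner of Ccnb1, was at least 3.15-fold higher, its probe being dim in all 5 lungs. Ttk (at least 1.94-fold) and Cenpf (at least 1.40-fold) were likewise dim in all lungs, and Hmmr averaged -1.13 ± 0.06. These 4 genes were not called.

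Promoter sequence was read for the lists with at least 10 tested genes of which at least 80% had a RefSeq promoter (GRCm38.p6, 250 bases before the start of transcription). The median ratio of observed to expected CpG was 0.827 for 23 mitosis genes and 0.861 for 24 replication genes, against 0.374 over all 32841 promoters. Immediate early genes (0.795) and clock genes (0.775) had similar values. The set of all promoters includes genes that were not tested here. Neither CpG content nor the motifs below were summarised over the tested genes alone. A CCAAT box, searched as CCAAT on both strands, occurred in 18 of 23 mitosis promoters (78.3%) and 14 of 24 replication promoters (58.3%), against 33.9% of all promoters. Its share was 69.2% for clock genes, 55.6% for hepatocyte plasma protein genes, and 5 of 10 promoters of serine and amino acid supply genes held it. The cell cycle element searched as TTTGAA on both strands occurred in 8 of the 23 mitosis promoters (34.8%, against 16% of all, 25.0% of alveolar type 2 and 12.5% of replication promoters), and an E2F-type match, TTTNNCGC on both strands, in 7 of 24 replication promoters (29.2%, against 4.3%). A TATA box, searched as TATAAA on the strand of the gene between 45 and 15 bases before the start, and an NKX2-1-type match, CTCAAG on both strands, each occurred in 2 of 8 alveolar type 2 promoters (25.0%), against 2.1% and 13.3% of all promoters. The CTCAAG match was also found in heart muscle (33.3%), NK (22.2%) and glycolysis (21.4%) promoters. None of these motifs contains another. For 9 heart muscle genes and 8 alveolar type 2 genes the CpG ratio was 0.221 and 0.514. Over all called genes the table held promoters for 73.3% on either side, too few for a comparison of the called genes as a whole. These matches are descriptions of the letters in the window and were not tested.

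The promoters of 4 genes whose ratios are given above are printed to show such low and high CpG content, with CpG in capitals and each written 5′ to 3′ on the strand of the gene (RefSeq, GRCm38.p6). The lung genes Cyp2f2 (chr7:27119705-27119954, plus strand) and Ager (chr17:34597600-34597849, plus strand) hold 0 and 3 CpG. The reference genes Rrm2 (chr12:24708004-24708253, plus strand) and Ccnb1 (chr13:100786487-100786736, minus strand) hold 34 and 28. These 4 promoters are picked examples and do not stand for the lung or the reference genes as a whole. Alveolar type 2 promoters had a median CpG ratio of 0.514 and heart muscle promoters 0.221, above and below the 0.374 of all promoters. A difference in CpG content between genes called higher in lung and in the reference was not tested.
Cyp2f2: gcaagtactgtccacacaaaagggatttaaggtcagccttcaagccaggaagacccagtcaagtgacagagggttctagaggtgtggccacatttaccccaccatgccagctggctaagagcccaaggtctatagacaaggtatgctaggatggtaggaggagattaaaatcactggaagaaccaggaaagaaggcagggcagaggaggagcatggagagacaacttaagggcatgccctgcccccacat
Ager: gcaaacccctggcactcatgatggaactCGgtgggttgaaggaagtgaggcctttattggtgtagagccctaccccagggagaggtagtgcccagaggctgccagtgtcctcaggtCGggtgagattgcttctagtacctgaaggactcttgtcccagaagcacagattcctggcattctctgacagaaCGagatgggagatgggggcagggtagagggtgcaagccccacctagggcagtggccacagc
Rrm2: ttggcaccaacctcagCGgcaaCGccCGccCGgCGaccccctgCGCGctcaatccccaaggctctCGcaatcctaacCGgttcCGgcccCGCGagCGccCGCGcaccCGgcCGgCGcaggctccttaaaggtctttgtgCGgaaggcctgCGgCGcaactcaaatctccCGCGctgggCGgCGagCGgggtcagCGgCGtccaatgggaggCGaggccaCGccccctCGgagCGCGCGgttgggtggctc
Ccnb1: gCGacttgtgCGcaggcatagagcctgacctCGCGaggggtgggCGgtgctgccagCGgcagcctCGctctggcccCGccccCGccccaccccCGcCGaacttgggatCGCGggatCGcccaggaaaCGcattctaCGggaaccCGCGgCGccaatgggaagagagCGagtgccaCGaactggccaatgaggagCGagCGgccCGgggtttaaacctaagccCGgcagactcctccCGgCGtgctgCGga

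Genes of ribosome assembly and amino acid supply had mostly negative ratios as well. Of 19 genes of the nucleolus and ribosome assembly 4 were called higher in the reference (10 after median centring): Myc (9.55-fold), Ncl (6.63-fold, with a second probe at -0.56), Nop58 (4.92-fold) and Polr1b (4.77-fold). The list median was -1.65, and 18 of 19 ratios were negative, Mycn being the exception at 0.12. All 11 tested genes of serine and amino acid supply (of 13 listed) were called higher in the reference, with a median of -2.64. The one-carbon enzyme Mthfd1l (12.5-fold), the serine synthesis gene Psat1 (11.7-fold) and the mitochondrial enzyme Shmt2 (8.79-fold) led them, and Psat1 gave -3.40, -3.57, -3.69, -3.56 and -3.51 in mice 1 to 5.

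All 14 glycolysis genes had negative ratios (median -1.81) and 6 were called higher in the reference (13 after median centring). The glucose transporter Slc2a1 was 11.6-fold, Pgam1 8.39-fold, Pgk1 7.56-fold, Tpi1 6.78-fold, Pfkl 4.26-fold and Hk2 4.03-fold higher. Gapdh, often used as a constant gene, had 7 tested probes with mean ratios from -2.93 to -0.18, of which 2 were called. Immediate early genes, which respond within minutes to serum and stress, were called higher in the reference in 3 of 10 tested cases (of 12 listed): Egr1 (11.8-fold), Fos (7.57-fold) and Fosb (5.04-fold). Jun (1.09 ± 0.03) and Dusp1 (1.02 ± 0.32) had positive ratios below the threshold.

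Imprinted and oncofetal genes split in both directions. Of 14 tested (of 15 listed) 5 were called higher in the reference, namely Dlk1, Hmga2, Hmga1 (6.76-fold, with another probe at -0.20 that was not called), Igf2bp2 (4.23-fold) and Igf2bp3 (at least 4.19-fold). Cdkn1c, an imprinted inhibitor of division, was 11.0-fold higher in lung, with 3.57, 3.58, 3.36, 3.74 and 3.02, and Plagl1 was 8.33-fold higher, although 2 of its 4 probes averaged 1.03 and 0.80 and were not called. Igf2 averaged -0.75 ± 0.12. Although Dlk1 and Meg3 lie in the same imprinted region, Meg3 had a positive ratio of 1.15 ± 0.36.

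The lines of the pool are not named in the sources used here, and markers of several other tissues were read in it. No gene was called higher in the reference among 5 tested myoblast genes, 9 pluripotency genes, 5 melanocyte genes, 5 keratinocyte genes, 4 steroid-producing gonad genes, 3 germ cell genes, 10 hepatocyte plasma protein genes, 4 kidney tubule genes, 2 early lymphoid genes or 2 mammary genes. Each of these lists holds between 6 and 17 genes, and the members not counted here did not pass the filter on dim probes. Of all tested genes 3.39% were called higher in the reference, so no call in lists this short says little about the pool. With the scanner's processed signals 2 myoblast, 1 pluripotency, 1 kidney tubule and 1 early lymphoid gene were called higher in the reference, and with background correction or the deposited ratios 1 myoblast gene was. Signals of the reference alone were found for Chrna1, the muscle acetylcholine receptor subunit (at least 3.75-fold), Pax8 of kidney and thyroid (at least 3.41-fold), Myog (at least 1.55-fold) and Lin28b (at least 1.53-fold). Several genes of these lists were instead called higher in lung: the transferrin gene Trf (68.5-fold), the mammary and lung factor Elf5 (at least 17.8-fold), the cadherin Cdh16 (14.8-fold), the water channel Aqp1 (8.31-fold) and Rbp4 (5.54-fold).

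The male animals and the pool differed at the sex chromosomes. Xist, the transcript of the inactive X chromosome, was dim in all 5 lungs and at least 6.14-fold higher in the reference. The Y-linked genes Eif2s3y (1.81 ± 0.23) and Ddx3y (1.07 ± 0.28) had positive ratios in all 5 mice and were well above background in the reference too. Uty was seen in lung alone, at least 1.32-fold higher. The fifth gene of the list, Kdm5d, did not pass the filter on dim probes.

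None of 15 tested clock genes (of 16 listed) was called, with a median of 0.70. Mouse 5 had the highest value of 10 of the 15 tested genes, among them the output factors Dbp, Tef and Hlf and the repressors Per1, Per2 and Nr1d1, and the lowest of 4, among them Arntl and the repressor Ciart. For Dbp the 5 mice gave 0.43, 0.61, 0.99, 0.24 and 1.78, and for Arntl 0.11, 0.13, -0.31, 0.42 and -0.60. The hour of tissue collection is not given in the sources used here.

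The same reference RNA was on every array, so the spread of the green channel holds no difference between animals. The dyes differ in signal and both channels entered the normalization, and the part of these in the difference was not tested. Over 23725 probes well above background in both RNAs on all 5 arrays, the median SD was 0.139 log2 units in the lung channel and 0.0879 in the reference channel, and the lung SD was the larger for 75.06% of probes. The difference of the medians was 0.0512 (jackknife SE over mice 0.0059). The median SD of the ratio was 0.136, and 1.34% of probes had an SD of at least 0.5.

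The lists that varied most between mice were those of mesothelium, airway cells, B cells and heart muscle. The mean log2 ratio of the 5 tested mesothelium genes (of 6 listed) was 0.73, -0.31, -0.50, -1.77 and 0.31 in mice 1 to 5. Upk3b alone gave 1.82, 0.35, 0.17, -1.61 and 1.43, and Wt1, called higher in the reference at 4.56-fold but not without mouse 4 (-1.72) or without normalization (-1.90), gave -0.96, -2.08, -2.36, -4.07 and -1.46. Mouse 4 was lowest for every gene of the list. The same mouse was highest for secretory (5.86 against 4.34 to 4.85 in the others) and ciliated airway genes (3.80 against 2.70 to 3.32).

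B cell genes were lowest in mouse 2 (mean 1.08 against 1.88 to 2.21), as were NK genes (0.938 against 1.108 to 1.635). T cell genes (-0.43 against -0.22 to -0.02) and MHC class II genes (2.75 against 2.96 to 3.32) were lowest in the same mouse. Heart muscle genes were lowest in mouse 3 (1.76 against 2.40 to 2.60), most of all Sln at 3.65 and Myl4 at 2.33. In contrast the list means of DNA replication stayed between -2.50 and -2.43, those of alveolar type 1 genes between 4.37 and 4.66 and those of the lung transcription factors between 2.99 and 3.16.

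**Figure D4:**
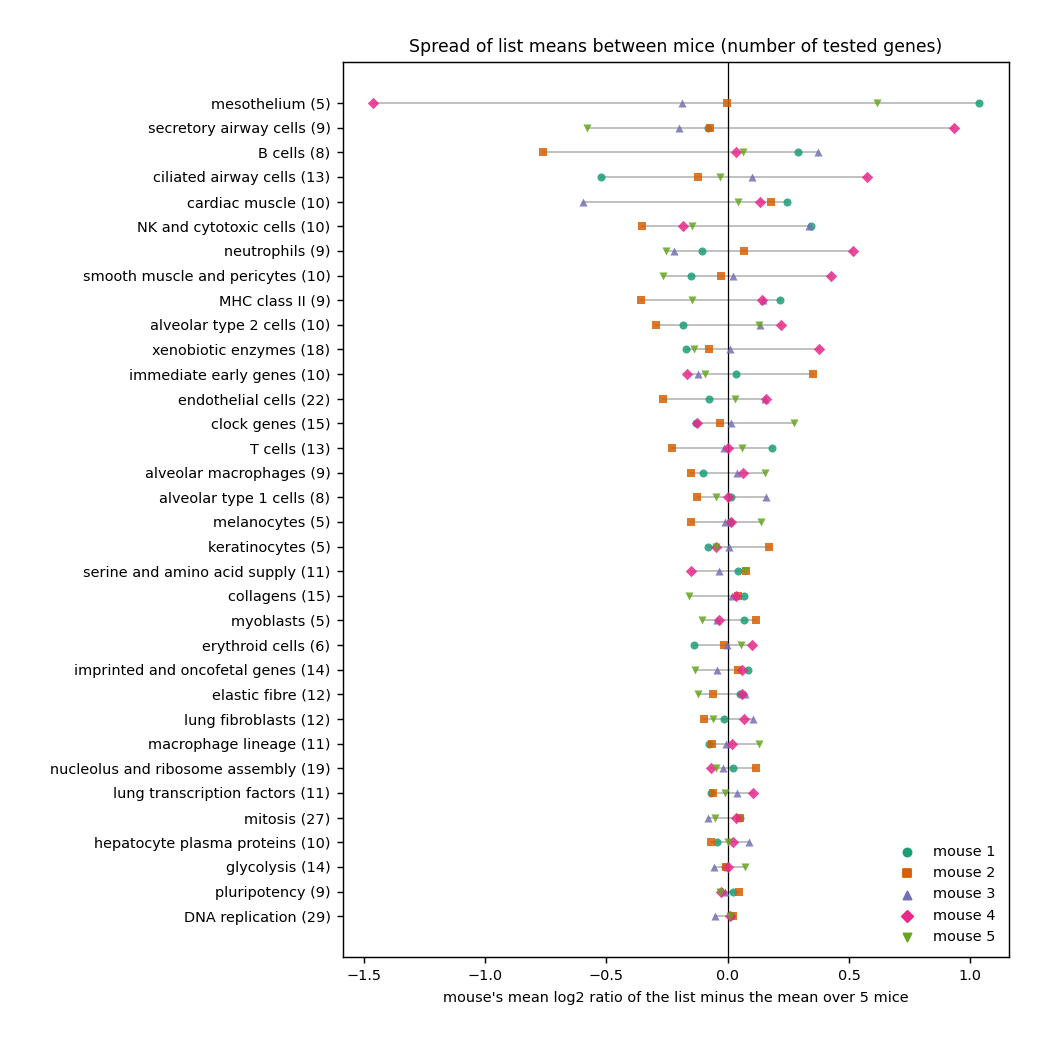
For each list with at least 5 tested genes, the mean log2 ratio in each of 5 mice minus the mean over the mice, ordered by the SD. Mesothelium spans 2.49 log2 units from mouse 4 to mouse 1 and DNA replication 0.0714.

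The 8 genes that varied most between mice were of several kinds. Bpifa1, an antimicrobial protein of the upper airway, gave 5.83, 5.56, 2.64, 7.17 and 3.51 in mice 1 to 5, and Reg3g, an antimicrobial lectin whose reference signal was well above background on no array (at least 7.51-fold), gave measured ratios of 3.89, 3.32, 1.89, 4.57 and 0.92. Both were lowest in mice 3 and 5 and highest in mouse 4. Hspa1a, the inducible heat shock protein 70, stood at 4.00 in mouse 2 and between 0.20 and 1.05 in the others. The U3 small nucleolar RNA gene Rnu3b1 stood at 3.19 in mouse 4 and between -1.04 and 0.27 in the others.

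Mnd1, which encodes a protein of meiotic recombination, took separate levels in different animals: -2.36, 0.82, 1.06, -0.61 and -2.57 in mice 1 to 5. Its second probe gave -2.32, -0.01, -0.06, -1.48 and -2.16, with mice 1 and 5 again lowest. Its reference signal stayed between 982 and 1274.5 on all 5 arrays. Trim34a, an interferon-inducible gene, gave 3.06, 0.30, 3.81, 3.68 and 0.41, but its second probe ranged only from 0.88 to 1.81. Vps16, a vesicle tethering gene with a single probe, gave 0.40, -0.70, -0.58, 0.31 and -4.19, its lung signal being 200 in mouse 5 and 1347 to 2990.5 in the others. For Cyyr1 the reference channel moved instead, since its green signal was 1154 on the array of mouse 4 and 41 to 60 on the others.

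**Figure D5:**
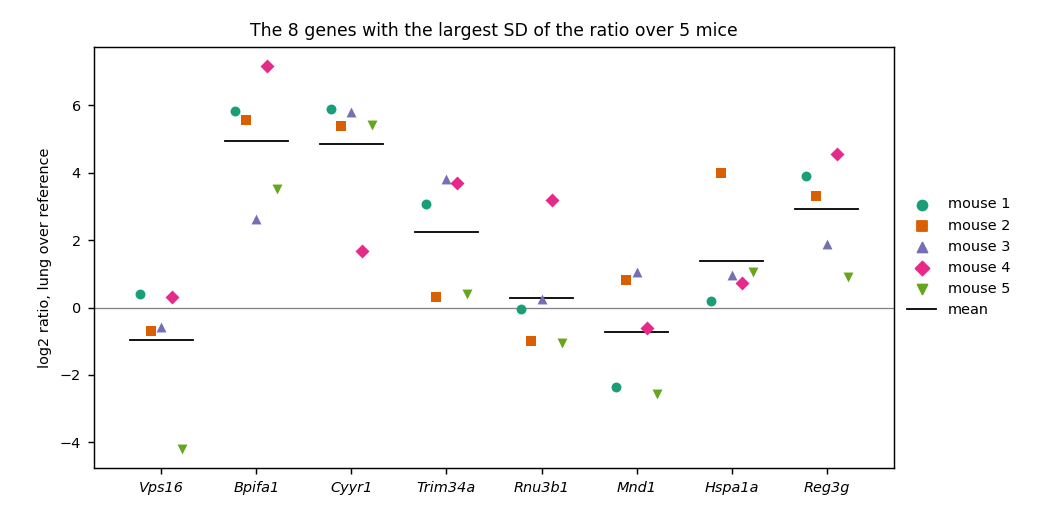
Log2 ratio in each of 5 mice for the 8 genes with the largest SD over mice, with the mean as a bar. Single mice stand apart for Vps16 (mouse 5, -4.19), Cyyr1 (mouse 4, 1.67) and Hspa1a (mouse 2, 4.00), whereas Trim34a and Mnd1 have several mice at each end.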

How the data were processed

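Lung RNA from separate vehicle-treated mice and reference RNA (200 ng each) were hybridised on 2-colour Agilent mouse arrays. The deposited scanner files hold intensity values, read with Feature Extraction 11.0.1.1 per the file headers. A deposited table of the authors' log2 ratios correlated with the ratios computed here (r from 0.998 to 0.999) and served only as an alternative.

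Loess (span 0.3) was run on each array over median intensities without background subtraction, as the study's methods describe, with control and outlier spots at weight 0 and spots of a probe averaged. Channel levels came from Aquantile scaling. Of 55681 probes 55642 had a value on all arrays, and 31938 were tested, being well above background in either RNA on at least 4 of 5 arrays. The mean log2 ratio was tested against 0 with limma 3.58.1 in R 4.3.3, with Benjamini-Hochberg adjustment. The limma test was tried on simulated log2 ratios, and the other steps were not. P-values set the mean ratio against the spread between the 5 mice and their arrays, with the variance moderated across probes. For probes well above background in 1 RNA on 5 arrays and in the other on none, the brighter mean was set against the dim mean, raised where needed to the lowest signal well above background, giving "at least N-fold".

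Symbols came from RefSeq accessions (GRCm38.p6; 27235 of 28685 matched), and promoters from RefSeq by symbol. The members of the 40 gene lists were chosen with earlier results of these data known. Genes were named as the 10 most extreme ratios, the 6 largest bounds on each side, the first 3 tested genes of each list with members called against its direction, and the 8 largest SDs, beside called members. A few genes are not reported here. The Hox genes and promoters were added after the data were seen. Alternatives covered background correction, normalization, processed signals, the deposited ratios, the filter on dim probes, the slide, the fold threshold, the test, the probe of a gene and each mouse.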

Additional observations from a re-analysis of the deposited data

Results flagged for a closer look

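In 287 genes, those of the naming rule and the others named in the text, and in the means of the lists, 1 mouse stood apart from the other 4 by Dixon's criterion in 19 of 287 genes and in 3 of 40 lists. Chance alone gives about 1 in 20. The genes include 8 chosen for their spread between mice, and without these the count was 16 of 279. The causes were not tested.

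Cd3e was lowest in mouse 3 (-0.938) and Cd22 highest in mouse 2 (0.547), but mouse 2 was low for several other lymphocyte genes. Cd3d stood at 1.79 (log2 ratio) against 2.34 to 2.46 in the other mice and the granule gene Nkg7 at 0.928 against 1.78 to 2.03, although on a second Nkg7 probe mouse 2 (1.88) lay close to mice 4 and 5 (1.96 and 1.91). Cd5 stood at -1.85 against -1.50 to -1.37. Kit was at 5.55 against 5.84 to 5.91 and Tbx4 at 4.37 against 4.74 to 4.81, both with a reference signal well above background on no array. Akap5 was at 6.19 against 6.55 to 6.66, and Hspa1a was highest, at 4 against 0.204 to 1.05. Mouse 3 was low for heart muscle, with Myl7 at 2.65 against 3.82 to 4.28 and the mean of the heart muscle list at 1.76 against 2.40 to 2.60. Its mean of the DNA replication list, -2.5, differed by a small step from -2.44 to -2.43 in the others.

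Mouse 5 had the highest Cdh16, 4.66 against 3.57 to 3.82, the lowest Vps16, -4.19 against -0.696 to 0.4, and the lowest collagen mean, 0.117 against 0.294 to 0.342. For the basal keratin Krt5 it stood at -0.135 against 0.134 to 0.221. Mouse 1 had Dlk1 at -5.63 against -6.1 to -6, Cd3e at -0.591 against -0.938 to -0.838 and the Y-linked Ddx3y at 0.577 against 1.12 to 1.24. In mouse 4 Cyyr1 stood at 1.67 against 5.4 to 5.89, Ogn at 0.969 against 1.33 to 1.38, and the neutrophil granule gene Ltf, dim in the reference on all arrays, at 4.55 against 2.66 to 2.78. Hoxb6 was highest in mouse 3, at 0.354 against -0.102 to 0.0217, and Hoxd8, dim in all lungs, lowest in mouse 5, at -2.42 against -2.16 to -2.09.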

How the results depend on the processing

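No probe called higher on 1 side was called on the other side under any alternative, and none of the 287 named genes turned direction while called. The 1701 probes higher in lung and 858 higher in the reference became 3626 and 2526 with the scanner's background-subtracted processed signals and 4609 and 3530 at a 2-fold threshold. Without 1 mouse they ranged from 1679 to 1730 and from 842 to 877. The split of calls depended on scaling: lung held 66.5% of the calls with loess, 53.7% after median centring (1477 and 1272 probes), 60.5% with the deposited ratios (1519 and 993) and 76.3% without normalization (2299 and 714), where the median ratio of tested probes was 0.483 in place of 0.0544. The slide as a random block gave 1705 and 860, and a limma test against 4-fold itself gave 1258 and 637. After median centring 10 nucleolus genes were called in place of 4. Among the Hox genes outside Hoxa and Hoxb 2 to 5, 16 were called higher in the reference with processed signals and 3 without normalization. Calls near the threshold were lost without single mice: Cyp1b1 fell to -1.97 without mouse 1, Hk2 to -1.96 without mouse 2, Mybpc3 to -1.97 without mouse 3, Wt1 to -1.72 without mouse 4, Hoxb13 to -1.97 and -1.95 without mouse 4 or 5, and Trim34a to 1.86 and 1.90 without mouse 3 or 4. Cyp1b1 (-1.72), Hk2 (-1.73), Mybpc3 (-1.82), Wt1 (-1.90) Pfkl (-1.97), Hoxa11, Hoxb13, Hoxc10, Hoxd8, Igf2bp2, Igf2bp3, Ltbp4 and Polr1b were not called without normalization, and Etv5 (1.59), Lamp3 (1.94), Hoxb13, Hoxb5 and Ltbp4 (1.46) after median centring. Calls were gained as well: of the 287 genes, 24 not called here were called with processed signals, 11 without normalization and 6 after median centring. List medians changed sign under some alternative for the germ cell, keratinocyte, melanocyte, mesothelium and steroid-producing gonad lists, and for no other list. The difference in spread between lung and reference channels ranged from 0.0468 to 0.0541 without 1 mouse and was 0.0456 after median centring. Background was not subtracted, so the ratios of dim probes are understated. Each ratio pairs lung and reference on 1 array, and no other group was compared.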

Other observations

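Most called genes lay outside the lists: 1120 of the 1253 genes higher in lung and 432 of the 513 higher in the reference belonged to none of them. The share called varied with the kind of identifier. Of 19510 tested probes for curated protein-coding transcripts 7.34% were higher in lung and 3.03% in the reference, and of 711 for noncoding transcripts 4.22% and 4.5%. Of 6186 probes designed to a genome interval the shares were 1.28% and 0.954%.

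The spike-in RNAs, synthetic transcripts added during labelling, differed between arrays. Each of the 10 spike-ins, with 35 spots per array and the same loess curve applied to its ratios, had its highest ratio on the array of mouse 3, and the array of mouse 4, on the same slide, was second for 9 of the 10. Their SDs over the 5 arrays ran from 0.258 to 0.397 log2 units, against a median of 0.136 for the ratios of genes. The within-array normalization was set on the genes, so a change in the total output of RNA would not be seen in the ratios.

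The interferon-inducible gene Ifi27l2a, chosen after its values were seen, gave log2 ratios of 0.79, -0.287, 0.411, -0.641 and 3.13 in mice 1 to 5. Its value in mouse 5 was the highest.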
